A study of Mus musculus with 10 samples.

Results

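Interfollicular basal keratinocytes are the dividing cells of the deepest layer of the epidermis, outside the hair follicles. They build their filaments from Krt5 and Krt14, carry Krt15, and anchor to the basement membrane through hemidesmosomes that contain Col17a1; on leaving the basal layer they replace Krt5 and Krt14 with Krt1 and Krt10. In these libraries of dissociated mouse back skin the cells were selected on measured values. Kept cells had more than 1000 and fewer than 6000 genes and under 10% mitochondrial UMIs (unique molecular identifiers, which count single RNA molecules). Basal keratinocytes among them had at least 10 UMIs of Krt5 and Krt14 together, fewer than 10 of Krt1 and Krt10, fewer than 30 of Col1a1 and Col3a1, and fewer than 2 of the follicle genes Shh, Lhx2, Sox9, Edar and Wnt10b detected. By this rule 6319 of 55482 kept cells were basal keratinocytes. The levels of the rule's own genes are therefore given only as a description.

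Total back skin was profiled on the 10x Genomics platform at 3 embryonic ages. At E15.5 there were 2 controls and 2 embryos of the genotype MOFfl/fl/K14Cre (MOF cKO), and at E16.5 again 2 controls and 2 MOF cKO embryos. At E17.5 there was 1 control and 1 embryo of the genotype QPCfl/fl/K14Cre (QPC cKO). All were on a mixed C57Bl/6J and CD-1 background. MOF, the product of Kat8, is a histone acetyltransferase, and QPC, the product of Uqcrq, is a subunit of respiratory complex III. Either gene is deleted by a Cre driven by the Krt14 promoter, so deletion is limited to epithelial cells that have turned Krt14 on. Controls are wild-type or heterozygous littermates according to the study. One E15.5 MOF cKO embryo, MOF cKO 6, is described in the study as mosaic by tissue staining. Per the labels each embryonic age was run with its own chemistry version, so age and chemistry cannot be told apart.

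The 10 libraries differed in what the rule collected. Basal keratinocytes numbered 1649 and 1625 in the E15.5 controls, 489 and 927 in E15.5 MOF cKO 5 and 6, 133 and 361 in the E16.5 controls and 19 and 18 in the E16.5 MOF cKO libraries. There were 742 in the E17.5 control and 356 in QPC cKO. The median cell held between 11444 and 24747.5 UMIs, and the summed libraries held between 319219 and 30483355. At E15.5 the basal part of the label held in the controls and in MOF cKO 6, and in part in MOF cKO 5. The interfollicular part rests on the rule, which allowed 1 detected follicle gene. Such a gene was found in 58.4% and 60.5% of E15.5 control cells and 65.0% and 60.2% of MOF cKO 5 and 6. At E16.5 it was found in 30.1% and 31.9% of control and 42.1% and 55.6% of MOF cKO cells. The E17.5 control and QPC cKO had 67.0% and 70.8%. The median cell of MOF cKO 5 had 95 UMIs of Krt5 and Krt14, against 214 and 211 in the controls and 209 in MOF cKO 6, and 46.2% of its cells had under 5 Krt15 UMIs per 10000 UMIs. At most 1.43% of the cells of an E15.5 library had only 10 to 19 UMIs of Krt5 and Krt14, and 3.08 to 6.58% carried 3 or more UMIs of the defining markers of another lineage, haemoglobin genes aside. At E16.5 other-lineage UMIs reached 19.5% and 10.8% of control cells and 13 of 19 and 11 of 18 MOF cKO cells. In the E16.5 MOF cKO libraries the label held only in part. All of their cells met the keratin rule, but the median Krt15 level per cell was 0.00 and 1.70 UMIs per 10000 UMIs, against 34.2 and 46.5 in the controls. The 7 suprabasal markers summed to 4285 CPM (UMIs per 1000000 UMIs summed over cells) in MOF cKO 1 and 1319 CPM in MOF cKO 2, against 1202 and 2311 CPM in the controls. Most of each sum was Krtdap, with 3556 and 1167 CPM in MOF cKO and 868 and 2058 CPM in the controls. Sbsn was higher in both MOF cKO libraries (695 and 128 against 51.7 and 103 CPM) and Lor lower (9.40 and 15.2 against 261 and 132 CPM). Basal cells and suprabasal cells with few Krt1 and Krt10 UMIs cannot be told apart there, and basal below means a cell that met the rule. At E17.5 the label held in part, since 241 of 742 control cells (32.5%) and 63 of 356 QPC cKO cells (17.7%) lay between 10 and 19 UMIs, close to the 7 and 4 UMIs of the median dermal cell. Just inside the threshold, the 144 E17.5 cells with 10 or 11 UMIs held on average 1.42 UMIs of Krt15, against 1.22 in the 292 cells just outside with 8 or 9, and 77.8 over all E17.5 members. At E15.5 and E16.5 the same edges held 6 and 13 cells inside and 6 and 33 outside. Results at E17.5 are therefore given for the 494 control and 279 QPC cKO cells with 50 or more Krt5 and Krt14 UMIs, a limit added after the data were seen, with the value by the rule beside them where they differ. Kat8, the gene deleted in MOF cKO, was low in basal cells everywhere, at 13.5 and 14.0 CPM in E15.5 controls and 11.7 and 10.5 CPM in MOF cKO. At E16.5 it was 17.02 and 15.3 CPM in controls and rested on 3 and 1 UMIs in MOF cKO. These counts come from one end of the transcript and may lie outside the deleted stretch, so they may not check the deletion. No cell barcode was shared by the members of the 2 E17.5 libraries, whose full lists shared 1702 barcodes (7 among kept cells), and no pair of libraries shared more than 1 member.

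The share of basal keratinocytes among kept cells was lower in every mutant library than in every control of its age. At E15.5 it was 19.6% and 17.8% in the controls, against 4.80% and 8.70% in MOF cKO 5 and 6, a difference of -12.0 percentage points between means of 18.7% ± 1.28 and 6.75% ± 2.76 (SD, n = 2 each). At E16.5 it was 11.7% and 14.8% in the controls, against 2.65% and 1.32% in MOF cKO, a difference of -11.2 points between 13.2% ± 2.18 and 1.99% ± 0.943 (SD, n = 2 each). Groups of 2 cannot give an exact permutation p below 0.333, which both ages reached, and over both ages, with labels permuted within an age, the two-sided exact p was 0.0556, the smallest possible. At E17.5 the share was 13.9% (95% Wilson interval 13.0 to 14.8%) in the control and 5.82% (5.26 to 6.43%) in QPC cKO. The difference of -8.04 points had a Newcombe interval of -9.15 to -6.95 points, which covers counting error only and compares 2 embryos. It depended on the keratin limit, at -4.67 points with 50, -4.57 with 20 and -3.54 with 5 UMIs required. A share of all cells also moves with every other cell type in the suspension.

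Among cells positive for Krt5 and Krt14 the groups lay closer together at E15.5. This denominator leaves out cells with few Krt5 and Krt14 UMIs, but members holding other-lineage markers remain in it. Such members made up 37.9% of the E17.5 control, where immune and mast cell markers summed to 1000 and 2935 CPM by the rule. Cells of other lineages can therefore still enter the denominator. E15.5 controls held 67.0% and 60.1% basal cells and MOF cKO 5 and 6 held 52.98% and 61.9%, so the groups overlapped (difference -6.097 points, exact permutation p = 0.667). E16.5 controls held 70.4% and 73.8%, above the 63.3% of MOF cKO 1 and the 18 of 36 cells of MOF cKO 2 (difference -15.4 points, exact permutation p = 0.333). Both ages together gave -10.8 points (two-sided exact permutation p = 0.111). With 1 library left out the difference ranged from -10.6 to -1.62 points at E15.5 and from -22.1 to -8.76 points at E16.5. Without members holding other-lineage markers, haemoglobin aside, it was -37.0 points at E16.5. That filter removed members only and no other cells of the denominator, which by itself lowers a share. The value is therefore no measure of a larger fall. At E17.5 the share was 41.6% in the control and 33.6% in QPC cKO, a difference of -8.03 points (Newcombe interval -11.6 to -4.35). It came to -2.98 points when 50 keratin UMIs were required and to 8.37 points, the opposite direction, when 5 sufficed.

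**Figure D1:**
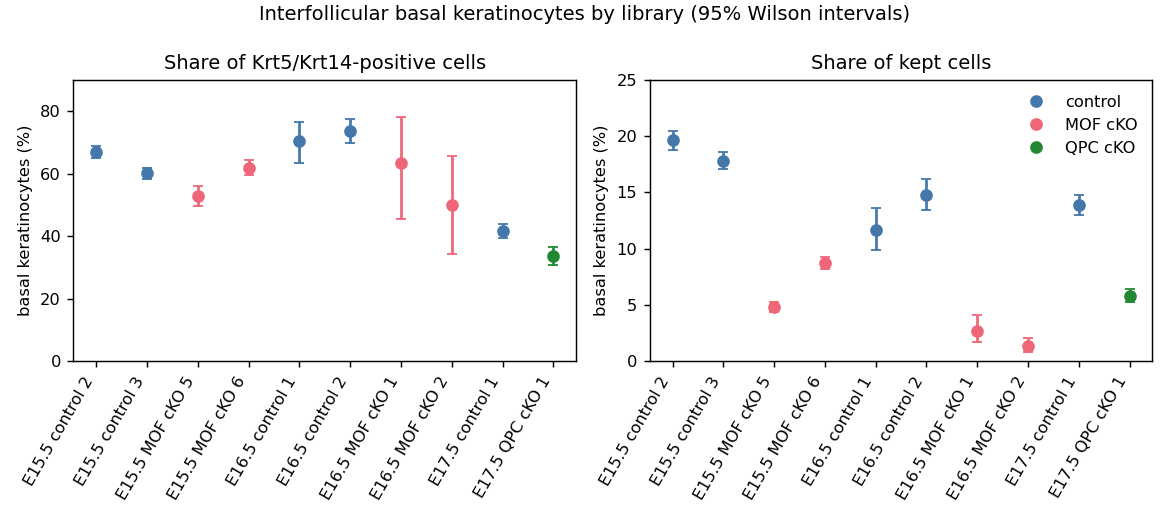
Basal keratinocytes as a percentage of cells positive for Krt5 and Krt14 (left) and of all kept cells (right) in each of the 10 libraries; points are single libraries, bars are 95% Wilson intervals of counting error, and colours mark control, MOF cKO and QPC cKO. On the right every mutant library lies below the controls of its age, between 1.32% and 8.70%, by the rule of 10 UMIs, whereas on the left E15.5 MOF cKO 6 (61.9%) lies between its controls.

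Krt15, a keratin of the basal layer that the selection did not use, was lower in every MOF cKO library than in the controls of its age. Its median level per cell was 34.0 and 35.0 UMIs per 10000 UMIs in the E15.5 controls, 5.45 in MOF cKO 5 and 21.4 in MOF cKO 6. At E16.5 the controls had medians of 34.2 and 46.5 and the MOF cKO libraries 0.00 and 1.70, with a Krt15 UMI found in 6 of 19 and 13 of 18 cells. In MOF cKO 5, 46.2% of the basal cells had under 5 Krt15 UMIs per 10000, against 4.67% and 3.63% of control cells and 11.5% of cells in MOF cKO 6, and the 90th percentile of 21.0 lay below the control medians. In MOF cKO 6 the 10th, 50th and 90th percentiles were 4.37, 21.4 and 49.7, each below the corresponding 9.56, 34.0 and 70.4 of control 2. After each cell was thinned to 3000 UMIs, Krt15 was detected in 97.6% and 97.7% of basal cells in the E15.5 controls and 71.3% and 93.1% in MOF cKO. It was detected in 92.4% and 97.2% in the E16.5 controls and 21.1% and 55.6% in E16.5 MOF cKO. In dermal cells, which should lack it, a UMI was found in 0.453 to 22.8%, and in 1.35% for E16.5 MOF cKO 1.

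Other basal markers had smaller differences. Col17a1, the hemidesmosome collagen, had medians of 2.28 and 2.03 UMIs per 10000 in the E15.5 controls, 1.08 in MOF cKO 5 and 2.03 in MOF cKO 6, so the groups touched. Trp63, the transcription factor that specifies stratified epithelium, was detected in 92.1% and 94.6% of E15.5 control cells, 78.3% of MOF cKO 5 and 93.5% of MOF cKO 6. In sums over cells, Col17a1 stood at 245 and 222 CPM in E15.5 controls against 129 and 229 CPM in MOF cKO (log2 fold change -0.27 ± 0.19 SE, adjusted p = 0.645, edgeR). It stood at 238 and 144 against 94.0 and 125 CPM at E16.5 (-0.32 ± 0.31 SE, adjusted p = 0.561, edgeR). Krt5 and Krt14, described only, had a joint median of 214 and 211 UMIs per cell in the E15.5 controls, 95 in MOF cKO 5 and 209 in MOF cKO 6.

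**Figure D2:**
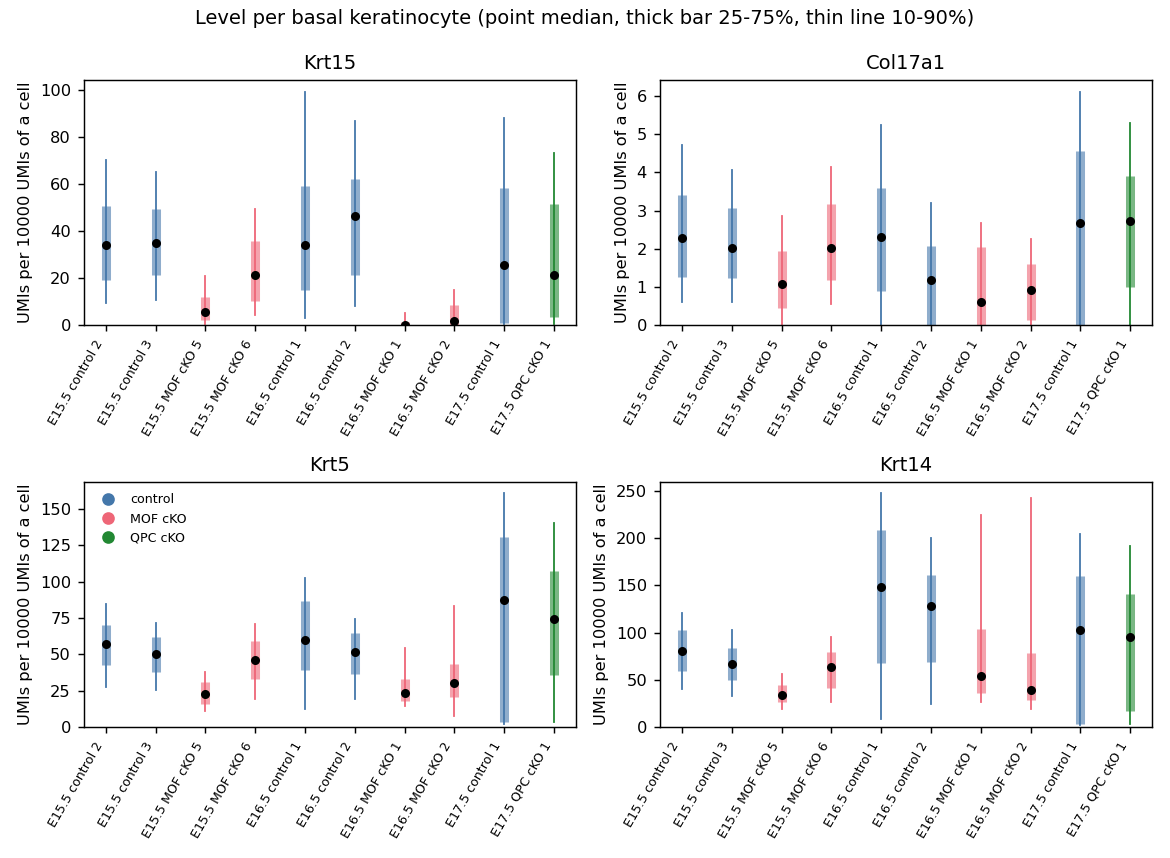
UMIs per 10000 UMIs of a cell (y axes, linear) for Krt15, Col17a1, Krt5 and Krt14 in the basal keratinocytes of each library; points are medians over cells, thick bars the 25th to 75th and thin lines the 10th to 90th percentiles. The Krt15 median falls from 34.0 and 35.0 in the E15.5 controls to 5.45 in MOF cKO 5, and from 34.2 and 46.5 in the E16.5 controls to 0.00 and 1.70, while Krt5 and Krt14 were used for the selection.

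At E15.5 the 2 MOF cKO libraries differed from the controls by very different amounts. No gene of 13246 tested passed an adjusted p of 0.05 in edgeR's quasi-likelihood test (0.0% of genes), although 888 had an unadjusted p under 0.05 and DESeq2 called 63. Without MOF cKO 6 the count was 6530, without MOF cKO 5 it was 785, without control 2 it was 1 and without control 3 it was 27, in each case with the lone library taken to vary like the other group. Both MOF cKO libraries lay below both controls for 28.6% of genes and above for 15.2%. Among these 5804 genes MOF cKO 5 was the farther from the control mean in 79.5%, with a median distance of 0.58 against 0.22 log2 units for MOF cKO 6. Counts of separated genes given below for E15.5 are to be read against 28.6% and 15.2%. Those for E16.5 are to be read against 48.5% of all genes below and 11.5% above. Several genes nonetheless moved by similar amounts in both libraries. The interferon-induced chemokine Cxcl10 had 211 and 217 CPM in controls against 50.8 and 63.8 CPM in MOF cKO (log2 fold change -1.76 ± 0.12 SE, adjusted p = 0.369, edgeR). The AP-1 subunit Fosl1 had 45.4 and 44.6 CPM against 9.67 and 11.1 CPM (-1.97 ± 0.15 SE, adjusted p = 0.393, edgeR). Irf1, an interferon regulatory factor, stood at 127 and 133 CPM in the controls and 35.2 and 54.1 CPM in MOF cKO. These 3 were chosen after their values were seen.

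Immediate early and AP-1 genes, which code for short-lived transcription factors such as Fos and Jun, had lower values in E15.5 MOF cKO basal cells, although none passed the test. Of 20 tested, 19 had both MOF cKO libraries below both controls and Ier5 overlapped (log2 fold change 0.57), with a median log2 fold change of -0.76 against -0.01 over all genes, and a range of -1.02 to -0.58 when any 1 library was left out. Fos had 3730 and 3526 CPM in the controls, 1445 CPM in MOF cKO 5 and 2478 CPM in MOF cKO 6. Jun had 3020 and 2942 against 1410 and 2247 CPM, and the stress-induced Atf3 had 1813 and 1703 against 315 and 636 CPM (log2 fold change -1.78 ± 0.26 SE, adjusted p = 0.639, edgeR). All 3 genes were higher in both controls than in either MOF cKO library. At E16.5, where both MOF cKO libraries lay above both controls for 11.5% of all genes and below for 48.5%, 3 of 19 list members lay above and 3 below, with a median of 0.58 that was 0.09 when scaled by library size alone. It ranged from 0.17 without control 2 to 1.06 without control 1. Fos was at 766 and 441 CPM in controls and 442 and 826 CPM in MOF cKO, and Atf3 at 210.3 and 69.7 against 65.8 and 121.9 CPM, so that for both the groups overlapped. Jun, at 921 and 564 against 382 and 430 CPM, was lower in both MOF cKO libraries. The difference between the ages itself was not called for Fos (1.21 ± 0.46 SE, adjusted p = 0.425, edgeR interaction term).

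Genes of the basal layer had medians near that of all genes. At E15.5, 5 of 30 basal keratinocyte genes lay above and 9 below (median -0.04). At E16.5, where 11.5% of all genes lay above and 48.5% below, 4 of 29 lay above and 15 below. That count below is near the share of all genes. The E16.5 median was -0.13, with Krt15 the 1 member past the test. Basement membrane and hemidesmosome genes, which anchor the cell to the dermis, had 5 of 28 above and 6 below at E15.5 (median 0.08) and 3 of 24 above and 9 below at E16.5. Their E16.5 median was 0.27, from -0.23 without MOF cKO 2 to 0.52 without control 1. Scaled by library size alone it was -0.21, where the median of all genes was -0.49. Desmosome and adherens junction genes, which join neighbouring keratinocytes, had 5 of 21 above and 6 below at E15.5 (median 0.18, from -0.019 without MOF cKO 5 to 0.34 without MOF cKO 6). At E16.5, 8 of 20 lay above and 1 below, with a median of 0.77 (all genes -0.03). It was 0.27 by library size alone (all genes -0.49) and 0.34 without members holding other-lineage markers, haemoglobin aside (all genes -0.44). None passed the test at either age.

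Targets of p53, the transcription factor that halts the cycle or triggers death after damage, had higher values, with none past the test at E15.5. There, 14 of 22 tested had both MOF cKO libraries above both controls and 3 below, with a median of 1.23, which was 0.30 without MOF cKO 5. Ccng1, a cyclin and p53 target, had 21.4 and 21.0 CPM in the controls, 160 CPM in MOF cKO 5 and 40.7 CPM in MOF cKO 6. Cdkn1a, which codes for the cycle inhibitor p21, was among the targets whose groups overlapped, with 77.0 and 74.2 CPM in the controls, 277 CPM in MOF cKO 5 and 52.4 CPM in MOF cKO 6. In cells thinned to 3000 UMIs Cdkn1a was detected in 17.3% and 18.3% of control cells, 44.1% of MOF cKO 5 and 10.6% of MOF cKO 6, and in 13.2 to 18.9% of E15.5 dermal cells. At E16.5, where 11.5% of all genes lay above and 48.5% below, 15 of 20 p53 targets lay above and 1 below. Their median was 1.93 (1.27 without MOF cKO 1), and 2 passed the test. Ccng1 rose from 31.0 and 19.1 CPM to 122 and 119 CPM (2.77 ± 0.34 SE, adjusted p = 0.0251, edgeR), and Trp53inp1 from 7.29 and 7.65 to 47.0 and 36.6 CPM (2.90 ± 0.43 SE, adjusted p = 0.0421, edgeR). Trp53inp1 was under the level of the filter on low counts in both controls and was tested because of its level in MOF cKO, so the E16.5 counts of this list are a description only. Cdkn1a had 73.5 and 18.9 against 514 and 247 CPM and missed the threshold (3.64 ± 0.67 SE, adjusted p = 0.0696, edgeR). Some p53 targets are also induced by other stress pathways, and Perp is a desmosome gene.

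Ciliary genes build the sensory organelle that hedgehog signalling uses, and none passed the test at either age. At E15.5, 36 of 51 had both MOF cKO libraries below both controls and 1 above (median -0.65, from -1.28 without MOF cKO 6 to -0.28 without MOF cKO 5). At E16.5, 21 of the 22 that passed the filter on low counts lay below and 0 above, where 48.5% of all genes lay below (median -1.07, from -1.95 without MOF cKO 2 to -0.31 without control 2). These counts compare CPM by library size, whereas the medians use TMM scaling, under which 18 of the 22 were negative and 4 positive. Dynlrb1, a dynein light chain and the most abundant of the list, was an exception at E15.5, at 119 and 105 CPM in controls and 130 and 127 CPM in MOF cKO. Cep164, a centriole appendage protein, had 55.6 and 55.8 CPM in controls and 20.3 and 51.0 CPM in MOF cKO. Hedgehog pathway genes had a median of -0.22 at E15.5, with 3 above and 5 below of 12 tested, and of -0.07 without MOF cKO 5. At E16.5 their median was 0.24, or -0.24 by library size alone, with 0 above and 2 below of 10. It ranged from -1.16 without MOF cKO 2 to 0.64 without MOF cKO 1, so it had no stable direction. Ciliary genes outside the filter at E16.5 are not counted there. A gene low in MOF cKO could pass that filter through the controls alone, so the E16.5 count and median of this list are a description only.

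Genes of respiration were counted by complex, and no difference between complexes was tested. At E15.5, 18 of 36 complex I subunits lay below and 1 above (median -0.20, and -0.051 without MOF cKO 5), whereas complex IV and V subunits had 4 below and 3 above of 26 (median 0.10). Mitochondrial ribosomal protein genes had 28 of 78 below and 3 above (median -0.19, from -0.41 without MOF cKO 6 to -0.0036 without MOF cKO 5). Cytosolic ribosomal protein genes were positive in all 80 tested, by a median of 0.35, yet only 16 lay above in both libraries and the median was -0.07 without MOF cKO 5. Glycolysis and lactate genes had a median of 0.38 with 8 of 19 above and 3 below; Gapdh stood at 1612 and 1631 CPM in controls and 1731 and 2069 CPM in MOF cKO. At E16.5 that list had 10 of 17 above and 3 below, where 11.5% of all genes lay above and 48.5% below. Its median was 0.79 (0.32 by library size alone). Slc16a3, which passed the filter through the MOF cKO libraries, was past the test. The E16.5 count and median of the glycolysis list are therefore a description only. At E16.5, against the 48.5% of all genes below, 28 of 36 complex I subunits (median -0.51), 71 of 77 mitochondrial ribosomal protein genes (median -0.69), 27 of 29 S phase genes (median -0.87) and 25 of 30 G2/M genes (median -0.88) lay below, with 0 above in each list. With 1 library left out the G2/M median ranged from -2.65 without MOF cKO 2 to -0.27 without MOF cKO 1, and the complex I median from -0.78 without control 1 to -0.27 without control 2. The S phase median ranged from -1.02 to -0.63 and the mitochondrial ribosomal median from -0.83 to -0.67. Cytosolic ribosomal protein genes had 59 of 80 above and 2 below, with a median of 0.91 (0.61 to 1.32 with 1 library left out). Under the TMM scaling of the medians, 66 of the 77 mitochondrial ribosomal genes and 31 of the 36 complex I subunits were negative. Complex IV and V subunits had 10 of 26 below and 0 above with a median of 0.18 (-0.25 by library size alone), and complex II and III subunits 9 of 14 below and 2 above with a median of -0.27. With 1 library left out the former median ranged from -0.13 to 0.36 and the latter from -0.54 to -0.099. No member of the respiratory complex, ribosomal, S phase or G2/M lists passed the test on its own. Scaling by library size alone moved the median of all E16.5 genes from -0.03 to -0.49 and that of the complex I, mitochondrial ribosomal and cytosolic ribosomal lists to -0.93, -1.14 and 0.48, with each list on the same side of it. E15.5 S phase and G2/M genes showed no such difference, with 2 and 0 below and 1 and 3 above of 30 each.

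**Figure D3:**
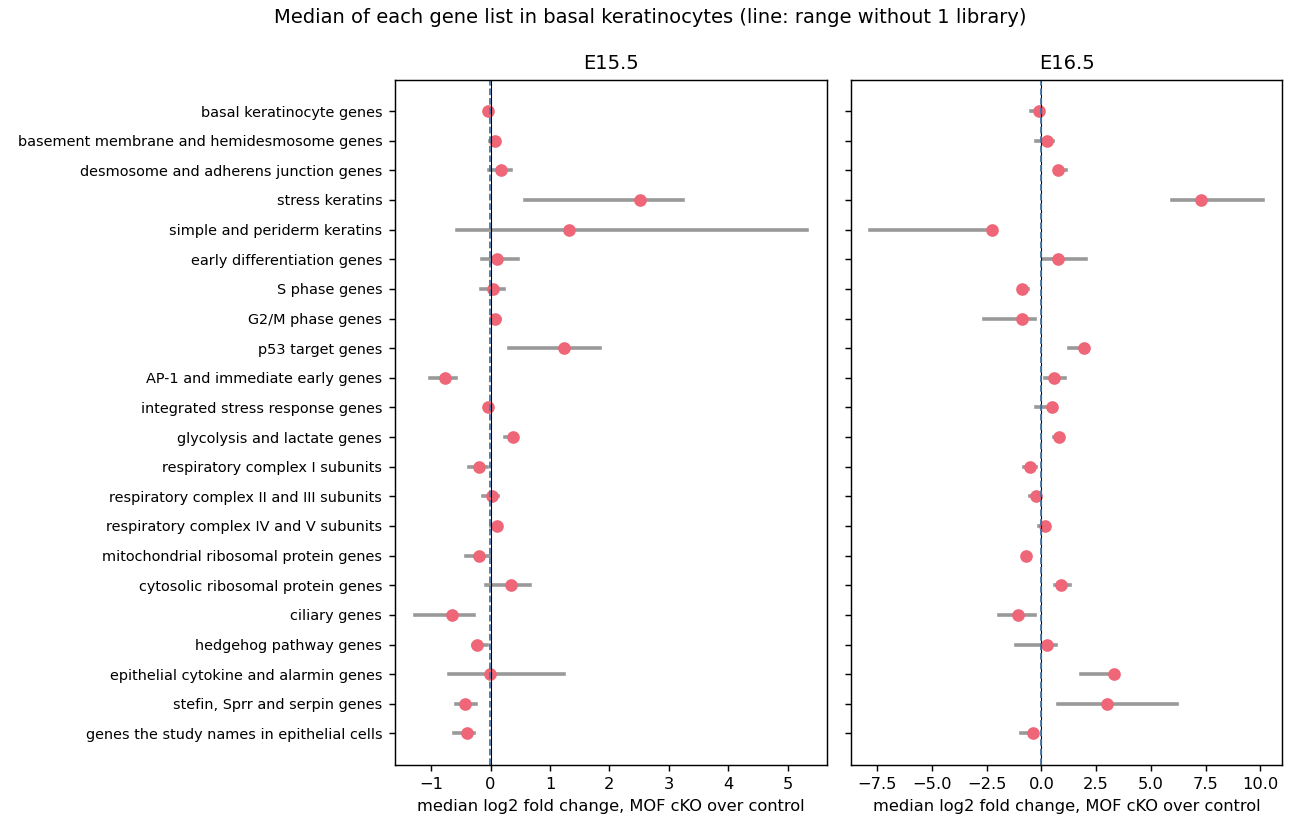
Median log2 fold change of MOF cKO over control in basal keratinocytes for 22 gene lists at E15.5 (left) and E16.5 (right, on a wider x axis); grey lines span the medians with 1 library left out, the solid line marks 0 and the dashed line the median of all genes. AP-1 and immediate early genes sit at -0.76 at E15.5 and at 0.58 at E16.5, p53 targets at 1.23 and 1.93, and ciliary genes at -0.65 and -1.07.

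At E16.5 the 19 and 18 MOF cKO basal cells had 47 genes past an adjusted p of 0.05 among 7458 tested, 41 higher (0.55%) and 6 lower (0.0805%). Of the 41, 27 were below the level of the filter on low counts (10.1 CPM) in both controls and were tested because of their level in MOF cKO, so their number is no measure of how many genes rose. The 6 lower genes were above that level in both controls, and 3 of them in both MOF cKO libraries. Lor, Wnt16 and Rgs2 were above it in only 1 MOF cKO library and passed through the controls. The number of lower genes is therefore no measure of how many fell. The split depended on the settings: it was 37 higher and 16 lower when scaled by library size alone, and 478 higher and 427 lower with no filter on low counts. Krt15 (minus strand of chromosome 11, 100131758 to 100135928 in mm10) fell from 4151 and 4776 CPM to 235 and 366 CPM (log2 fold change -3.47 ± 0.38 SE, adjusted p = 0.0235, edgeR). The other 5 that fell were Lor, Wnt16, Rgs2, Spc24 and Cbr2. Lor (loricrin of the cornified envelope) went from 261 and 132 to 9.40 and 15.2 CPM, the latter on 3 and 5 UMIs. Control Krt1- and Krt10-positive cells held 48699 and 23798 CPM of Lor, and the part of free RNA from them in the basal level was not tested. Wnt16 (a Wnt ligand) went from 161 and 172 to 6.27 and 21.3 CPM, and Rgs2 (a regulator of G protein signalling) from 132 and 108 to 6.27 and 15.2 CPM. Spc24 (a kinetochore protein) went from 125 and 102 to 12.5 and 12.2 CPM, and Cbr2 (a carbonyl reductase), from 125 and 110 to 12.5 and 18.3 CPM. In MOF cKO 1 and 2 a single UMI equals 3.13 and 3.05 CPM, so the MOF cKO values of all 5 rest on few UMIs. Without MOF cKO 1 no gene was called by edgeR (1435 at an unadjusted p under 0.05), and without MOF cKO 2, 43 were, all of them higher. Krt15 kept its direction in both, at -3.32 (adjusted p = 0.322) and -3.75 (adjusted p = 0.103). Its call was also lost with fewer than 3 Krt1 and Krt10 UMIs (-3.07, adjusted p = 0.0503, edgeR) and without members holding other-lineage markers, haemoglobin aside (-4.01, adjusted p = 0.329, edgeR). DESeq2 called 236 genes, and the count was 90 without control 1, 243 without control 2 and 4 when fewer than 3 Krt1 and Krt10 UMIs were allowed.

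Stress keratins are induced in injured epidermis. Krt16 rose from 17.6 and 15.51 CPM to 6268 and 1944 CPM (8.47 ± 0.80 SE, adjusted p = 0.0149, edgeR). Krt6b (minus strand of chromosome 15, 101676023 to 101680287), with 1 and 7 UMIs in the controls, passed the filter on low counts through the MOF cKO libraries. It went from 0.608 and 1.41 to 2829 and 874 CPM (11.03 ± 0.96 SE, adjusted p = 0.0138, edgeR). Krt17, with 1106 and 797 against 3869 and 2571 CPM, missed the threshold (2.26 ± 0.39 SE, adjusted p = 0.0618, edgeR). Krt6a had 0 and 102 CPM in controls and 4279 and 1282 CPM in MOF cKO. The 504 UMIs of control 2 lay in 6 of 361 cells, and its level was 0.871 CPM in cells with 50 or more keratin UMIs. Krt6a and Krt6b are near-identical copies, so reads could be split between them. Krt6a was detected in 47.4% and 11.1% of MOF cKO basal cells thinned to 3000 UMIs, and in 10.8% and 5.6% of dermal cells of the same libraries. Krt16 was found in 17 of 19 and 9 of 18 MOF cKO basal cells, against 8.27% and 10.2% of basal cells in controls.

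Cytokine and alarmin genes, secreted signals from epithelium to immune cells, included 6 past the test, S100a9, S100a8, Tslp, Cxcl16, Hbegf and Areg. All 6 were below the level of the filter on low counts in both controls and passed it through the MOF cKO libraries, so their values are given and no count or median over the list is read. S100a9 and S100a8, the subunits of calprotectin, had 1.22 and 0.604 against 595 and 97.5 CPM and 0 and 0.403 against 97.1 and 24.4 CPM. Tslp, a cytokine of inflamed epidermis, had 0 and 1 UMIs in the controls and 282 and 27.4 CPM in MOF cKO; the pooled ratio of 1011 has an exact interval of 177 to 40316, counting error only. Cxcl16, a chemokine, went from 9.12 and 7.65 to 119 and 91.4 CPM, and the receptor ligand Hbegf from 5.47 and 4.63 to 97.1 and 57.9 CPM. Areg, a second such ligand, rested on 2 control UMIs (pooled ratio 76.6, interval 17.8 to 690). The 7 immune markers summed to 410 and 25.8 CPM in the E16.5 control basal cells, 138 CPM in MOF cKO 1 and 1286 CPM in MOF cKO 2, and their part in the result was not tested.

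Of 30 early differentiation genes 14 passed the filter on low counts at E16.5, with Ivl and Lor past the test in opposite directions. Fold changes were positive for 12 of the 14 and negative for 2 (median 0.77, from 0.091 without MOF cKO 1 to 2.03 without control 2), a description only, since Ivl was among them. Ivl (minus strand of chromosome 3, 92570902 to 92573735), which codes for the envelope protein involucrin, went from 0.608 and 1.81 CPM to 97.1 and 94.4 CPM (6.37 ± 0.46 SE, adjusted p = 0.0133, edgeR), while Lor fell. Ivl had 1 and 9 UMIs in the controls and, like Csta3, Rbp2, Serpinb6c and Slc16a3, passed the filter on low counts through the MOF cKO libraries. Csta3, a cysteine protease inhibitor of the stefin family, whose copies are near-identical, had 2 control UMIs and 1168 and 213 CPM in MOF cKO (pooled ratio 2261, interval 622 to 18729). Rbp2, a retinol-binding protein, had 1.82 and 0.806 against 254 and 76.2 CPM, and Serpinb6c, a serine protease inhibitor, rested on 3 control UMIs (pooled ratio 126, interval 39.9 to 638). Other called genes were outside that list. Ly6d, a surface protein of keratinocytes, rose from 39.5 and 34.6 to 2553 and 643 CPM (5.96 ± 0.78 SE, adjusted p = 0.0316, edgeR). Bex1, a small adaptor protein, rose from 70.5 and 49.6 to 316 and 704 CPM (3.53 ± 0.41 SE, adjusted p = 0.0235, edgeR). Slc16a3, a lactate exporter, went from 8.51 and 5.44 to 65.8 and 70.1 CPM (3.80 ± 0.35 SE, adjusted p = 0.0138, edgeR).

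**Figure D4:**
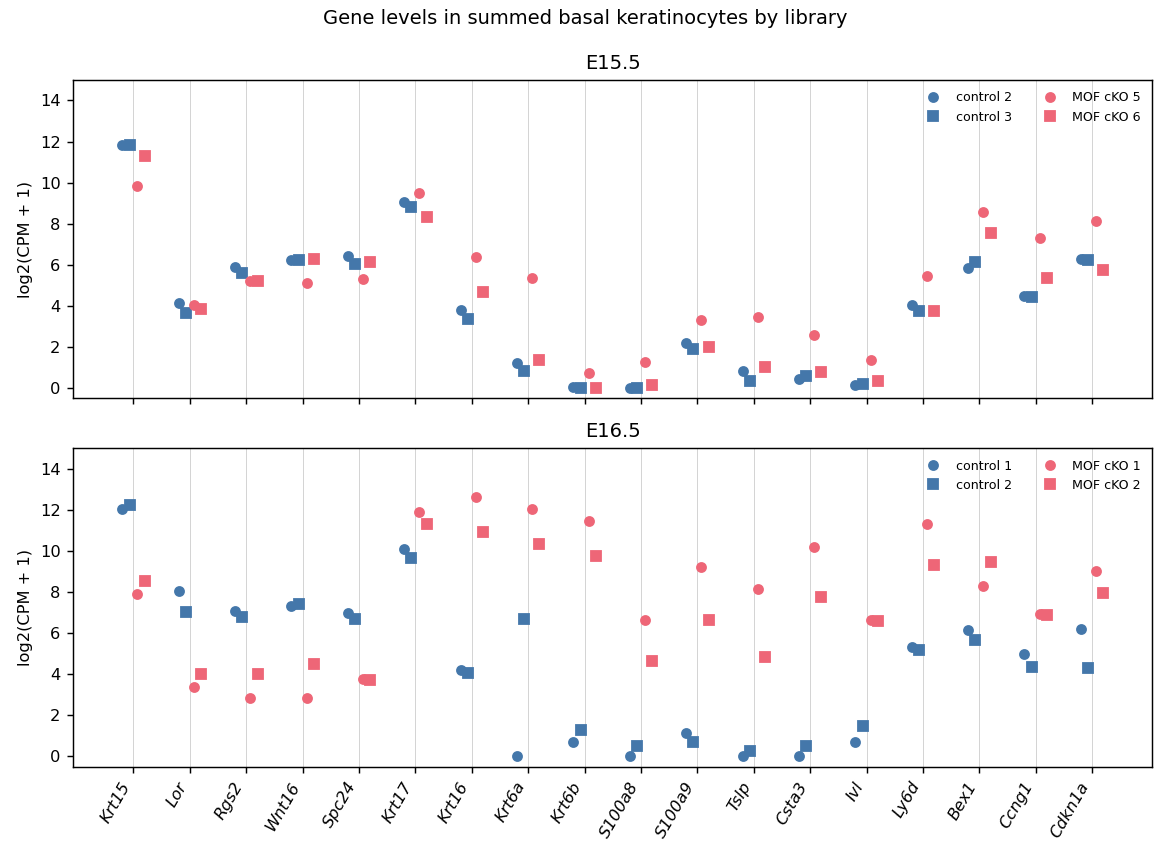
Level of 18 genes in summed basal keratinocytes as log2(CPM + 1) (y axis) at E15.5 (top) and E16.5 (bottom); each point is 1 library, blue for controls and red for MOF cKO. Krt6b, Csta3 and Tslp go from at most 1.41 CPM in the E16.5 controls to at least 27.4 CPM in MOF cKO, and Bex1 at E15.5 goes from 57.1 and 68.6 CPM in controls to 380 and 187 CPM.

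The genes called at E16.5 were looked up in the separate E15.5 embryos. Since most of the higher genes had been tested because of their MOF cKO level, no count over them is read. Of the called genes, 12 higher and 3 lower were past the filter in all E16.5 libraries. Values are given for Bex1, Krt16, Ly6d and Krt15 among these, a choice that does not stand for the rest. Bex1 had 57.1 and 68.6 CPM in the E15.5 controls and 380 and 187 CPM in MOF cKO (2.40 ± 0.49 SE, adjusted p = 0.639, edgeR). It was detected in 39.6% and 47.1% of control cells, 90.4% of MOF cKO 5 and 76.4% of MOF cKO 6. Krt16 was at 13.2 and 9.19 CPM in the E15.5 controls and 83.0 and 24.8 CPM in MOF cKO. Ly6d was at 15.3 and 12.5 CPM in the E15.5 controls and 42.4 and 12.4 CPM in MOF cKO 5 and 6, so its groups overlapped. For Krt15 the values were 3708 and 3710 against 911 and 2513 CPM (-1.04 ± 0.39 SE, adjusted p = 0.639, edgeR). Testing the effect at E16.5 against that at E15.5 called 0 of 12039 genes in edgeR (1295 at an unadjusted p under 0.05; 100 in DESeq2), with -2.53 ± 0.56 SE and an adjusted p of 0.334 for Krt15.

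Within E16.5, the effect in basal cells was tested against the effect in other cells of the same embryos. Against the Krt1- and Krt10-positive keratinocytes (33 and 78 cells in controls, 10 and 13 in MOF cKO), 20 of 5522 genes had a larger change upward or a smaller fall in basal cells (0.362%) and 11 the opposite (0.199%). The 11 included the haemoglobin genes Hba-a1 (difference -2.17), Hba-a2 (-2.13) and Hbb-bt (-1.82), which are markers of another lineage. Against collagen-high dermal fibroblasts, in which the Krt14 promoter is not active, the counts were 126 (0.984%) and 147 (1.15%) of 12811. Ivl was called in both, with 97.1 and 94.4 CPM in MOF cKO basal cells against 0.608 and 1.81 CPM in control basal cells, and 1.18 and 0.563 CPM against 1.39 and 2.59 CPM in dermal cells (difference 7.59 ± 0.87 SE). Rgs2 fell in basal cells but was 55.4 and 45.6 CPM in control and 82.1 and 86.4 CPM in MOF cKO dermal cells (difference -4.08 ± 0.42 SE). Ly6d stayed at 4.73 and 7.17 against 18.6 and 4.43 CPM in dermal cells (difference 4.68 ± 0.30 SE). Bex1 rose in basal cells but was 27.4 and 18.4 CPM in control and 4.53 and 5.71 CPM, near the level of 1 UMI, in MOF cKO keratinocytes with Krt1 and Krt10 (difference 5.20 ± 0.59 SE). Sprr1a, a cornified envelope precursor, went the other way: it reached 9389 and 4742 CPM in those MOF cKO keratinocytes, from 1.96 and 4.08 CPM in controls, and 680 and 30.5 CPM in basal cells, from 0 and 116 CPM. The 116 CPM of control 2 was 2.61 CPM in cells with 50 or more keratin UMIs. Without MOF cKO 1 the calls against Krt1 and Krt10 cells numbered 10 and those against dermal cells 67; without control 1 they numbered 71 and 168, the former 101 without control 2, and the latter 674 without MOF cKO 2. At E15.5 neither comparison called a gene in edgeR, of 12327 and 15896 tested (471 and 848 at an unadjusted p under 0.05; DESeq2 called 8 and 13).

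Between the ages, control basal cells differed at 1715 genes higher at E16.5 (13.9% of 12380) and 2395 lower (19.3%), a comparison in which age, chemistry and gene annotation changed together. Levels here are CPM over the genes that both annotations hold, so they differ slightly from those above. Krt15 was at 3727 and 3729 CPM at E15.5 and 4198 and 4829 CPM at E16.5 (0.15 ± 0.25 SE, adjusted p = 0.688, edgeR). It was called higher without E16.5 control 1 (0.36, adjusted p = 7.9e-04, edgeR) and lower without E16.5 control 2 (-0.16, adjusted p = 0.0416, edgeR). AP-1 and immediate early genes fell at E16.5 in 14 of 20 cases and rose in 0, with a median of -1.97. Fosb went from 778 and 763 to 28.3 and 11.4 CPM, and Atf3 from 1822 and 1712 to 213 and 70.5 CPM. Cytokine and alarmin genes fell in 10 of 16 cases and rose in 1 (median -1.56). Desmosome and adherens junction genes fell in 10 of 20 and rose in 1 (median -0.61), among them the cadherin Dsg3, from 48.5 and 42.0 to 10.5 and 11.4 CPM. Among basal genes 10 of 30 fell and 3 rose. The Notch ligand Jag2 went from 62.8 and 64.6 to 14.8 and 13.9 CPM and the Wnt ligand Wnt4 from 354 and 356 to 160 and 139 CPM. Igfbp2 rose from 164 and 149 to 316 and 367 CPM. Lor rose from 16.9 and 11.8 to 264 and 133 CPM. The Krt1- and Krt10-positive cells of the E16.5 controls held 48699 and 23798 CPM of Lor, and the part of free RNA from them in this rise was not tested. E16.5 control 1 held 607 CPM of 5 muscle markers against 8.66 CPM in control 2, and the called muscle genes Tnnc2, Myl4 and Acta1 rest on it. Leaving out E15.5 control 2 or 3 lowered the number of called genes to 328 or 318, and leaving out E16.5 control 1 raised it to 6459.

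At E17.5, with 1 embryo of each genotype, no test was possible, and genes were taken as past the fold when they differed by at least 2-fold with exact Poisson intervals of counting error that did not overlap. Among the cells with 50 or more keratin UMIs, 68 of 8545 genes were higher (0.796%) and 84 lower (0.983%) in QPC cKO. A gene needed 100 UMIs in either library, so it could be compared because of its level in only 1 of them. Counts of genes past the fold at E17.5 are therefore a description only. By the rule of 10 UMIs the counts were 54 higher (0.528%) and 652 lower (6.37%) of 10228. The largest falls were mast cell genes such as Cma1, a chymase (2060 to 2.34 CPM), and Cpa3, a carboxypeptidase (1787 to 2.22 CPM). Summed mast cell markers stood at 2935 CPM in the control and 40.3 CPM in QPC cKO by that rule, and at 158 and 5.76 CPM with 50 UMIs required. Melanocyte markers went the other way with 50 UMIs required, at 5.59 and 70.2 CPM, and the melanocyte gene Dct was at 2.70 and 37.5 CPM; the part of either cell type in the fold changes was not tested.

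Uqcrq, the targeted gene, stood at 122 CPM (interval 116 to 129) in control basal cells and 28.2 CPM (24.5 to 32.4) in QPC cKO, and at 145 and 55.3 CPM by the rule of 10 UMIs. Among respiratory subunits it alone was past the fold, as 1 of 14 tested in complexes II and III, 0 of 36 in complex I and 0 of 26 in complexes IV and V. The median log2 ratios were 0.09 for complex I, 0.02 for complexes II and III and 0.02 for complexes IV and V, beside -0.06 over all genes. Krt15 was at 5210 CPM in the control and 3779 CPM in QPC cKO (log2 ratio -0.46), with medians per cell of 45.4 and 31.1 UMIs per 10000, and Col17a1 was at 411 and 327 CPM (-0.33). By the rule of 10 UMIs Krt15 was at 3481 and 3167 CPM and Col17a1 at 275 and 274 CPM, and none of these differences reached 2-fold. The median of the basal keratinocyte genes was -0.18 with 50 UMIs and 0.15 with 10. Of the stress keratins Krt16 was past the fold, at 10.1 and 22.1 CPM, and Krt17 had 1551 and 2471 CPM. By the rule of 10 UMIs Krt17 was past it too, at 1045.5 and 2126 CPM.

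Genes of the integrated stress response, the programme that ATF4 drives when mitochondria or protein synthesis fail, had 6 members higher and 1 lower of 18 tested, with a median of 0.45. By the rule of 10 UMIs the counts were 6 and 1 of 19, and the cytokine and alarmin list had 3 higher and 14 lower of 21, against 2 and 2 of 11 with 50 UMIs. Nupr1, a stress-induced chromatin protein, went from 4.42 CPM (3.27 to 5.84) to 48.6 CPM (43.6 to 54.0). Atf5, a transcription factor, went from 31.3 to 260 CPM, the mitochondrial folate enzyme Mthfd2 from 11.3 to 73.9 CPM. The pseudokinase Trib3 went from 3.34 to 19.9 CPM, asparagine synthetase Asns from 42.3 to 112 CPM and the proline synthesis enzyme Aldh18a1 from 10.8 to 31.0 CPM. Sesn2, also a p53 target, was the one lower, from 22.9 to 10.4 CPM. All 6 higher genes were also past the fold by the rule of 10 UMIs. With 50 keratin UMIs required, Nupr1 and Trib3 were under the minimum of 100 UMIs per gene in the control. They were tested because of their level in QPC cKO, whereas Sesn2 reached the minimum only in the control. The E17.5 counts and median of the stress response list are therefore a description only. In MOF cKO, 0 of 19 members lay above and 7 below at E15.5 (median -0.05), where 15.2% of all genes lay above and 28.6% below. At E16.5, 6 of 16 lay above and 5 below, where 11.5% of all genes lay above and 48.5% below. The E16.5 median was 0.48, from -0.23 without MOF cKO 2 to 0.52 without MOF cKO 1. These counts compare 2 libraries per group and are not on the scale of the 2-fold limit used at E17.5. Nupr1, with 5 and 16 UMIs in the controls, passed the filter on low counts through the MOF cKO libraries, and was at 3.04 and 3.22 against 200 and 36.6 CPM (5.67 ± 0.86 SE, adjusted p = 0.0433, edgeR).

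**Figure D5:**
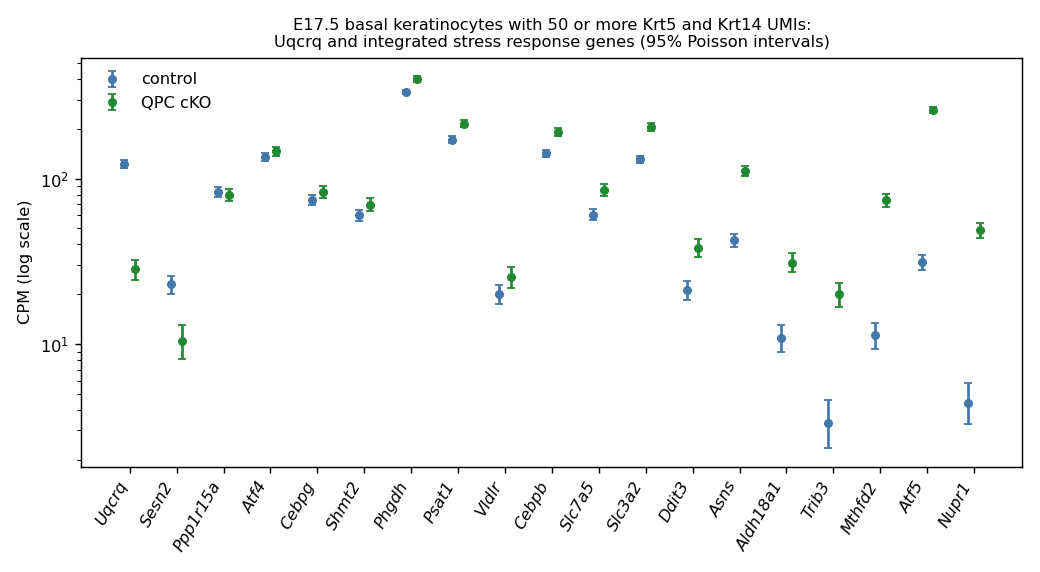
CPM on a log axis of Uqcrq and the 18 tested integrated stress response genes in E17.5 basal keratinocytes with 50 or more Krt5 and Krt14 UMIs, ordered by fold, in the control (blue) and QPC cKO (green) library; bars are 95% Poisson intervals. Uqcrq drops from 122 to 28.2 CPM, and the largest rise is that of Nupr1, from 4.42 to 48.6 CPM.

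Among other genes past the fold in QPC cKO basal cells, the chemokine Ccl20 went from 2 UMIs in the control to 210 UMIs in QPC cKO (ratio 164, interval 44.7 to 1360). The matricellular protein gene Ccn2 went from 2.70 to 79.9 CPM, the receptor ligand Epgn from 2.98 to 36.7 CPM and the mitochondrial folate enzyme Aldh1l2 from 1.35 to 23.7 CPM. Upk3bl went from 1 UMI to 105 (ratio 164, interval 28.7 to 6522). Fam129a was at 0.811 and 18.7 CPM but at 13.0 and 18.7 CPM by the rule of 10 UMIs, where it was not past the fold. With 50 keratin UMIs required, Ccl20, Ccn2, Epgn, Aldh1l2, Upk3bl and Fam129a were under the minimum of 100 UMIs in the control. They were compared because of their level in QPC cKO. Pthlh, a hormone-like peptide of keratinocytes, stood at 28.2 and 122 CPM. Pthlh is also one of the 8 follicle markers, whose sum was 452 CPM in the control and 811 CPM in QPC cKO; their part in the result was not tested. Among AP-1 and immediate early genes 3 of 18 were lower and 0 higher: Fos went from 1427 to 663 CPM, Ier2 from 762 to 344 CPM and Zfp36, which degrades cytokine messages, from 228 to 97.3 CPM. By the rule of 10 UMIs 6 of 19 were lower (median -0.72 against -0.44 with 50 UMIs), Zfp36 among them, but Fos (1200 to 731 CPM) and Ier2 (670 to 344 CPM) were not. The lactate exporter Slc16a3 went from 23.9 to 3.79 CPM, opposite to its direction in E16.5 MOF cKO, and the glycolysis list had a median of -0.52. S phase and G2/M genes had medians of -0.35 and -0.26, with 1 and 0 members past the fold. Cytosolic ribosomal protein genes had a median of 0.18 with 0 of 79 past the fold.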

How the data were processed

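Per the labels, the authors counted UMIs per gene and cell with Cell Ranger (versions 1.3.1 and 6.1.2 are listed, with no role) against mm10, and deposited filtered matrices of raw counts, with 27998 genes at E16.5 and 32285 at the other ages. Cells were kept by the limits given above; no doublet caller was run. The members, gene lists and tests were chosen with earlier results of these data known. Counts were summed per library over basal cells and tested with edgeR 4.0.16 in R 4.3.3 (quasi-likelihood, TMM, filterByExpr, Benjamini-Hochberg adjustment, threshold 0.05), and the selection genes stayed in library sizes but out of tests. Each library is taken to be 1 embryo sample; p-values measure the spread between libraries. At E17.5, genes with 100 or more UMIs in either library were compared as CPM ratios with a pseudocount of 1. Genes were named by rule: up to 8 per direction and up to 4 past the threshold and 3 by level per list. Coordinates come from GENCODE on the same build. Alternatives covered DESeq2 1.42.0, scaling, filters, the selection limits and leaving out each library. Intervals cover counting error only.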

Additional observations from a re-analysis of the deposited data

Results flagged for a closer look

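The effect of MOF deletion at E16.5 differed between basal keratinocytes and other cells of the same libraries, by an interaction test in edgeR, for 31 genes against Krt1- and Krt10-positive keratinocytes and for 273 genes against dermal cells. The 31 included the haemoglobin genes Hba-a1, Hba-a2 and Hbb-bt, which are markers of another lineage. Against the Krt1- and Krt10-positive cells the largest named differences, on the log2 scale as the effect in basal cells minus the effect in the others, were 9.51 for the transcription factor Sox4, 7.12 for Ivl, 5.20 for Bex1, 4.77 for Lor and -9.42 for Sprr1a. Lor fell in both classes, and its positive value reflects the larger fall in the Krt1- and Krt10-positive cells, from 48699 and 23798 CPM to 127 and 51.4 CPM. Sox4 was at 93.9 and 89.8 CPM in control Krt1- and Krt10-positive cells and at 0 in both MOF cKO libraries, so its fitted value depends on the prior count and is no bound. Against dermal cells the differences were 8.71 for Tslp, 7.59 for Ivl, 6.597 for Crabp2, 6.07 for Rbp2, 4.81 for Nupr1, 4.73 for Fhl2, 4.71 for Ggct, 4.68 for Ly6d and -4.08 for Rgs2. Tslp had 0 and 1 UMIs in control basal cells, so its fitted value also depends on the prior count and is no bound. Crabp2, a retinoic acid binding protein, was at 1.82 and 1.41 CPM in control and 110 and 54.8 CPM in MOF cKO basal cells, and at 37.6 and 31.3 CPM in control and 20.6 and 18.0 CPM in MOF cKO dermal cells.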

How the results depend on the processing

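With groups of 2 libraries and 37 MOF cKO basal cells at E16.5, counts of called genes moved most. At E15.5 (0 genes) DESeq2 gave 63 and no filter on low counts 5, and leaving out 1 library 1 to 6530. At E16.5 (47) DESeq2 gave 236, no filter 905 (478 higher, 427 lower), 20 or 50 keratin UMIs 272 and 218, under 3 Krt1 and Krt10 UMIs 4, leaving out members with other-lineage markers (haemoglobin aside, added after seeing the data) 12, the spread over 8 samples 26, and leaving out 1 library 0 to 243. The replicate block gave 83, and the crossed pairing, chosen after seeing the data, gave 659. Deviations of same-numbered libraries had a correlation of -0.157, which cannot show which libraries are littermates. The study states that it used pairs with littermate controls, and the main tests used no pairing. The difference between ages (0) gave 100 with DESeq2, 316 with no filter and 0 to 10 without 1 library. Control ages (4110) gave 318 to 6459 without 1 library. Against Krt1- and Krt10-positive cells, E15.5 (0) gave 8 with DESeq2, 142 with no filter and 2 to 738 without 1 library, and E16.5 (31) gave 69, 246 and 10 to 101. Against dermal cells, E15.5 (0) gave 13 with DESeq2 and 3 to 5063 without 1 library, and E16.5 (273) gave 713 with no filter and 67 to 674. At E17.5 (706) a pseudocount of 10 gave 301, a minimum of 20 UMIs per gene 1280, 20 or 50 keratin UMIs 160 and 152, and leaving out other-lineage cells, haemoglobin aside, 126. The E17.5 difference in the share of kept cells (-8.04 points) was -3.54 with 5, -4.57 with 20 and -4.67 with 50 keratin UMIs, -5.80 under 5% mitochondrial UMIs, -6.72 with no upper gene limit, -4.11 without other-lineage cells (-4.25 haemoglobin aside) and -9.31 after thinning to 5000 UMIs. Among keratin-positive cells (-8.03) it was 8.37, -3.09, -2.98, -12.5, -3.01 (-3.19) and -3.13 in the same order, the gene limit aside. The limit on other-lineage markers removed members only and no other keratin-positive cells. Without members holding other-lineage markers, haemoglobin included, at most 2 members per library were left at E15.5 and 0 at E16.5. The share difference was then 0.0 of kept and 0.0 of keratin-positive cells at E16.5. At E15.5 it was -0.0075 of kept and 0.0208 of keratin-positive cells, and over both ages -0.0038 and 0.0104. With a collagen limit added, gene tests could not be fitted. After thinning, the E15.5 difference among keratin-positive cells was 0.660. Leaving out 1 library, the E15.5 change ranged from -0.56 to 2.21 for Cdkn1a, from -0.66 to 0.88 for Krt17, from -0.19 to 1.94 for Ly6d (lowest without MOF cKO 5, highest without MOF cKO 6) and from -0.41 to 0.10 for Kat8, and the age difference of Krt15 from -0.16 to 0.36. Of 832 values for named genes, 654 kept their direction and side of the threshold and 5 changed direction. The cause of these shifts was not tested.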

Other observations

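Hox genes, the transcription factors that mark position along the body, were examined at E17.5 after their values were seen. In basal cells with 50 or more keratin UMIs, 20 of 39 Hox genes had the minimum of 100 UMIs in either library. Of these, 8 were past the fold, all lower in QPC cKO, and 0 were higher. Over all genes tested, 0.983% were past it downward and 0.796% upward. Hoxa9, Hoxb6, Hoxb8, Hoxb9 and Hoxd8 reached the minimum only in the control, which held more UMIs in sum, so the count is a description only. Hoxc13, under the minimum in both libraries, went the opposite way. It was at 3.52 CPM (2.50 to 4.81) in the control and 13.1 CPM (10.5 to 16.0) in QPC cKO. Hoxa7 was at 199.5 CPM in the control and 34.6 CPM in QPC cKO, Hoxb8 at 46.2 and 7.30 CPM, and Hoxb9 at 35.5 and 0.562 CPM. In dermal cells of the same libraries the 8 genes were mixed. Hoxa7 was at 15.1 CPM in the control and 17.4 CPM in QPC cKO, Hoxb9 at 21.4 and 23.1 CPM and Hoxa9 at 12.0 and 42.4 CPM. Hoxb genes at low levels had smaller values in QPC cKO, with Hoxb6 at 3.83 and 1.57 CPM, Hoxb7 at 5.72 and 2.69 CPM and Hoxb8 at 4.50 and 2.46 CPM. Dermal Hoxa10 went from 0.916 to 23.0 CPM and Hoxc10 from 12.2 to 68.5 CPM. Only 1 embryo of each genotype was profiled, so the difference between genotypes and a difference between embryos or in the skin sampled cannot be told apart.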
